A study of Homo sapiens with 3 samples.

Results

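Huh7 is an established human hepatocellular carcinoma line, and its chromatin was sequenced here in 3 libraries from untreated cells. One was an input library made with no antibody, and 2 were ChIP-seq libraries, numbered replicate 2 and replicate 3, in which the antibody G-5 against FOXM1 was used. ChIP-seq sequences the DNA fragments that an antibody pulls down, and FOXM1, a transcription factor of the forkhead family, acts in the cell cycle. Separate cultures are not stated for these libraries, and with no second antibody and no FOXM1-deficient cells among the 3 libraries, the specificity of the peaks was not tested.

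The genes described are 10 of the 19974 protein-coding genes on chromosomes 1 to 22 and X: the KMT2 genes KMT2A, KMT2B, KMT2C, KMT2D and KMT2E, their relatives SETD1A and SETD1B, and the genes of the subunits menin (MEN1), WDR5 and ASH2L. A peak counted for a gene when its summit lay inside the gene or within 5 kb of it (RefSeq, GRCh38). By this rule 14 of the 8271 peaks of replicate 2 and 16 of the 11502 peaks of replicate 3 belonged to these genes. The peaks were selected on their summit positions in the called lists, and the set of genes was chosen by name with the strong KMT2A peak already known, so both are described without a test over the set. Peak lists measure no expression, and the cell line label was not checked against marker genes.

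The COMPASS family of complexes places methyl groups on lysine 4 of histone H3, a mark found at active promoters and enhancers. Each complex has 1 catalytic subunit: SETD1A or SETD1B for most of the trimethyl mark at promoters, KMT2A or KMT2B at chosen targets, and KMT2C or KMT2D for the monomethyl mark at enhancers. WDR5 and ASH2L are core subunits that every one of these complexes shares, and menin joins the complexes of KMT2A and KMT2B. KMT2E carries a SET domain like the others but is thought to lack methyltransferase activity. KMT2A is best known as the gene broken in MLL-rearranged leukaemia, and KMT2B is a frequent site of hepatitis B virus integration in liver cancer.

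Of the 10 genes, 8 had a locus called in both ChIP libraries, against 25.5% of all protein-coding genes and 28.7% of those of at least 20 kb. A shared locus was a set of peaks that overlapped between the libraries by at least 1 bp, with a summit of each library inside the window. The 8 were KMT2A, KMT2B, KMT2C, KMT2D, KMT2E, SETD1B, MEN1 and WDR5. SETD1A and ASH2L had no peak in either library. With −log10 q of at least 5 required in each library only KMT2A and KMT2B remained, against 6.36% of all protein-coding genes. With fold of at least 4 in each library 6 did, all but KMT2D and KMT2E, against 8.33%. With peaks that overlap by at least 50% of each, KMT2A, KMT2B, KMT2D and WDR5 did, against 16.9%. KMT2C, KMT2D, SETD1B and WDR5 had a shared locus with summits inside the gene itself, against 16.1%. No member had all of its peaks in 1 library, though some single peaks were called in 1 library only. In replicate 2, 8 of 10 had a peak, against 33.3% of all protein-coding genes. The same 8 had one in replicate 3, against 41.3%.

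The start of a gene and its strand were given by the RefSeq promoter windows, which cover 250 bases before to 50 bases after each annotated start. Such windows existed for 8 of the 10 genes, all but SETD1B and ASH2L. Within 1 kb of an annotated start, or of either end where no strand was given, 6 of the 10 genes had a shared locus. The share over all protein-coding genes was 20.0%. Of the 8 genes with an annotated start the same 6 had a shared locus there, against 20.5% of all protein-coding genes with one. The 6 were all 5 KMT2 genes and WDR5. With −log10 q of at least 5 KMT2A and KMT2B were left, against 4.72% of all protein-coding genes, and with fold of at least 4 it was 4 genes, KMT2A, KMT2B, KMT2C and WDR5, against 6.09%. The locus of MEN1 lay past the far end of the gene, and that of SETD1B lay well inside it.

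The windows below are shown because they hold the summits at KMT2A, KMT2B, KMT2E and WDR5, and because SETD1A, with no peak, stands as a contrast. Each is written 5′ to 3′ on the plus strand, which is the gene's own strand. Capitals mark the bases from the lowest to the highest summit in the window with 10 bases on either side. At WDR5 the window held the summit of replicate 3 only, and at SETD1A no base is in capitals.
KMT2A, chr11:118436242-118436541: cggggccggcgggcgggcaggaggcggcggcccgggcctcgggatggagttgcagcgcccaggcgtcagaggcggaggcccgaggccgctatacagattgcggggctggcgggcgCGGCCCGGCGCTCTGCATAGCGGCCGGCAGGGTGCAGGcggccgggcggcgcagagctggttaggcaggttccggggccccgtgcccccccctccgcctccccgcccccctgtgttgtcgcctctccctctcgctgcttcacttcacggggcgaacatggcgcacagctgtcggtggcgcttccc
KMT2B, chr19:35717753-35718052: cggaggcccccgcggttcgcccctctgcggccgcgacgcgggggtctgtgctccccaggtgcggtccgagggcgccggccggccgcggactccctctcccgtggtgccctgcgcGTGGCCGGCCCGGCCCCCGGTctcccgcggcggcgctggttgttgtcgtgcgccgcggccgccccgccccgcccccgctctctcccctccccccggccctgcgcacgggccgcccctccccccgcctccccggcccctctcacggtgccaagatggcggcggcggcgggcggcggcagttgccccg
KMT2E, chr7:105013955-105014254: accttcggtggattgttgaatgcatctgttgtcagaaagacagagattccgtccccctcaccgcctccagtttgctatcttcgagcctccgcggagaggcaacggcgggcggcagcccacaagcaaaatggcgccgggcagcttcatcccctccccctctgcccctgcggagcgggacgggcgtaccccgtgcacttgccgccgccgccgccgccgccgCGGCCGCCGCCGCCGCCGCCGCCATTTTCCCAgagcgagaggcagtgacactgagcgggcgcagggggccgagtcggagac
WDR5, chr9:134135832-134136131: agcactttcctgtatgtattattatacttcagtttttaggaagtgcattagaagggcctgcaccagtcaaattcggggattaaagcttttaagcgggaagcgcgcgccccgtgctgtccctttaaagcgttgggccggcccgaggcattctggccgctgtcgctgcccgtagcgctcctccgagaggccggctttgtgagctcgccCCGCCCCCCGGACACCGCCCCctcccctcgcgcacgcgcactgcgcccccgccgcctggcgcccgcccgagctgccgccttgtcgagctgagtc
SETD1A, chr16:30957504-30957803: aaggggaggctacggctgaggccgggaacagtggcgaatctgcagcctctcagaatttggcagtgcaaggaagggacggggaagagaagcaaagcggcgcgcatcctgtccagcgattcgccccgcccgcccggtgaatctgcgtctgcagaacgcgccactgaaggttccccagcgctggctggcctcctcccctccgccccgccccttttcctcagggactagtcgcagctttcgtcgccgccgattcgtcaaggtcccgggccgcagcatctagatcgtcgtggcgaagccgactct

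KMT2A had the highest fold enrichment of the 10 genes in each library. Fold enrichment is the authors' value for each peak, a linear ratio of the signal at the summit over the local background. At KMT2A (chromosome 11, 118435991 to 118436825) it was 7.83 in replicate 2 and 8.09 in replicate 3, which placed the peak 4th of 8271 and 6th of 11502. The −log10 q of 18.1 and 15.7 placed it 15th and 29th. The summit lay at -108 bp from the annotated start in replicate 2 and at -125 bp in replicate 3, where negative values are upstream. The summits were thus 17 bp apart, and the 38 capital bases of the KMT2A window span them. The peak of replicate 2 ran on into the gene to 118436825, while that of replicate 3 ended at 118436494, beside the start.

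The number of fragments behind a peak was rebuilt from its deposited fold and p. At KMT2A 45 fragments lay over the summit in replicate 2 (exact Poisson 95% interval 32.8 to 60.2) and 37 in replicate 3 (26.1 to 51.0). Both counts are well above the median of 26 and 24.5 over all peaks of the lists. The local background, at the depth of the ChIP library, was 4.72 and 3.57 fragments, below the median of 5.89 and 5.75. High fragment counts and a low background therefore both entered the KMT2A fold, and these intervals cover counting error only.

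KMT2B, the closest relative of KMT2A, also had a locus at its start, and a second one upstream. At its start (chromosome 19, 35717764 to 35718456) both libraries placed the summit on the same base, 35717877, at -126 bp. Fold was 4.82 in replicate 2 and 6.74 in replicate 3, on 26 and 35 fragments over backgrounds of 4.46 and 4.21. The replicate 3 peak was 23rd by fold in its list, while that of replicate 2 stood above 89.8% of its list. The second locus (35717082 to 35717659) joined 1 peak of replicate 2, with its summit at -591 bp and fold 4.37, to 2 peaks of replicate 3, at -866 bp (fold 3.28) and -404 bp (fold 4.64). It also lay within 1 kb of the far end of ZBTB32, a zinc finger gene on the same strand.

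**Figure D1:**
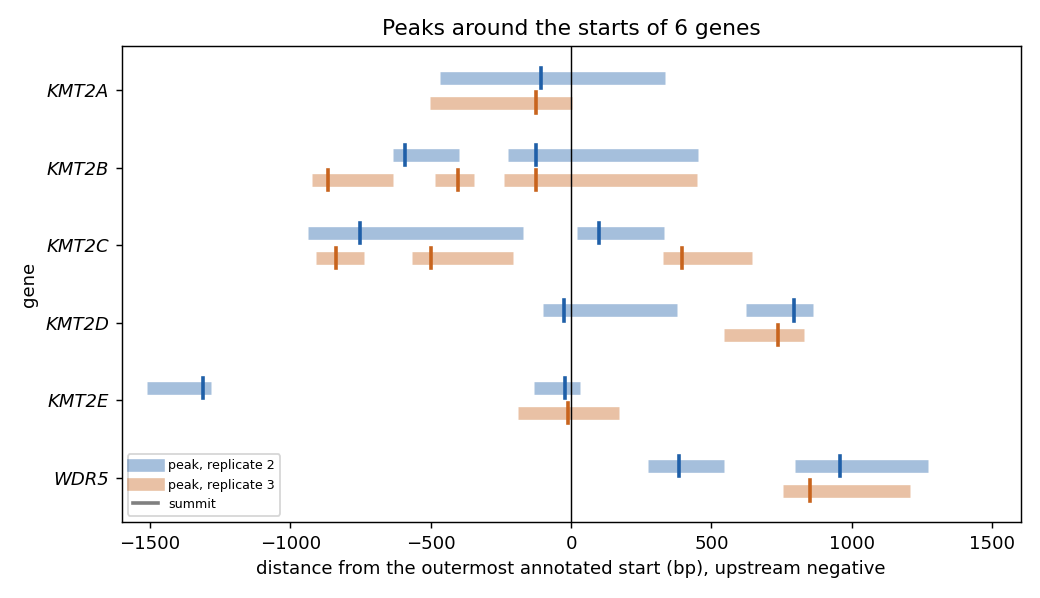
Peaks (bars) and summits (ticks) of replicate 2 (blue) and replicate 3 (orange) around 6 genes, by distance in bp from the outermost annotated start in the direction of transcription, upstream negative. The summits of the libraries coincide at the start locus of KMT2B and lie 17 bp apart at KMT2A and 11 bp apart at KMT2E. The gaps are wider elsewhere: 187 bp at the upstream KMT2B locus, 293 and 88 bp at KMT2C, 56 bp at KMT2D and 108 bp at WDR5. The shared summits stand inside the gene at KMT2D (793 and 737 bp), at WDR5 and at the downstream KMT2C locus.

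KMT2C, the enhancer methyltransferase gene of 301079 bp, had peaks only around its start. Downstream of the start (chromosome 7, 152435359 to 152435983) the peaks of the libraries overlapped by 6 bp, with summits at 101 bp in replicate 2 and 394 bp in replicate 3. Their fold was 4.09 and 4.06. This shared call therefore rests on neighbouring peaks rather than on 1 common summit. Upstream (152436175 to 152436938) 1 peak of replicate 2, at -750 bp with fold 3.62, overlapped 2 of replicate 3, at -497 bp (fold 4.19) and -838 bp (fold 4.22). The pseudogene FABP5P3 lies there too, within 1 kb of the summits. No peak was listed in the rest of the gene.

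KMT2D, the other enhancer methyltransferase gene, had the weakest shared locus of the set. At chromosome 12, 49059931 to 49060248, inside the gene, summits lay at 793 bp and 737 bp from the start. Fold was 2.75 in replicate 2, above only 6.18% of that list, and 4.50 in replicate 3, above 81.1%. The fragment counts were 28 (18.6 to 40.5) and 35 (24.4 to 48.7), and the local background was 9.43 and 6.88. Replicate 2 had another peak on the start itself, at -26 bp, with fold 2.90 and 33 fragments over a background of 10.6, the highest background of any peak of these genes. Replicate 3 had no peak there. It had 1 at the opposite end of the gene, 77 bp outside it, with fold 3.25. That summit lay at -125 bp from the start of PRKAG1, which encodes a subunit of AMP-activated protein kinase, and to which gene it belongs was not tested.

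KMT2E had its locus on the start (chromosome 7, 105014015 to 105014376), with summits at -21 bp and -10 bp. Replicate 2 had fold 4.87 and replicate 3 had 3.25, and the fragment counts were 39 (27.7 to 53.3) and 25 (16.2 to 36.9) over backgrounds of 7.07 and 6.91. The intervals overlap. The antisense RNA gene KMT2E-AS1 starts in the other direction at 105014141, and the same summits lay at -43 bp and -54 bp from its start. Peaks carry no strand, so the locus cannot be given to 1 of these genes. Both summits lay inside a run of 7 GCC repeats (105014176 to 105014196), seen within the capitals of the KMT2E window, and a first run of 7 (105014152 to 105014172) ends just before the capitals. Whether reads over these repeats map to 1 place alone was not examined. Replicate 2 also had a peak at -1310 bp, with fold 3.20, inside KMT2E-AS1.

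SETD1B had the widest shared locus of the set, 1124 bp (chromosome 12, 121800053 to 121801176), inside the annotated gene. Fold was 6.11 in replicate 2, 57th in its list, and 4.51 in replicate 3. The fragment counts were 34 (23.5 to 47.5) and 24 (15.4 to 35.7), over backgrounds of 4.57 and 4.42. The summits lay 493 bp apart, at 10603 and 10110 bp from the lower end of the gene. They were also inside the long non-coding RNA gene LINC01089, which overlaps SETD1B. Replicate 3 alone had 3 more peaks, with fold 3.33, 4.03 and 3.96. Those of fold 3.33 and 4.03 had summits at 44 bp and -668 bp from the start of RHOF, another protein-coding gene. To which gene they belong was not tested. Replicate 2 alone had 1 more peak, with fold 2.81, at -673 bp from the start of LINC01089. Its −log10 q of 1.58 was the lowest of all peaks of these genes and near the lowest of the list, 1.32.

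SETD1A, the other SET1 gene, had no peak inside it or within 5 kb. The nearest summit was 33281 bp away in replicate 2 and 12689 bp away in replicate 3. A gene without a peak is one where the calling threshold was not passed, and no more than that. For scale, no peak with a background of 4 to 6 fragments was listed on fewer than 16 fragments in replicate 2 or 15 in replicate 3.

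**Figure D2:**
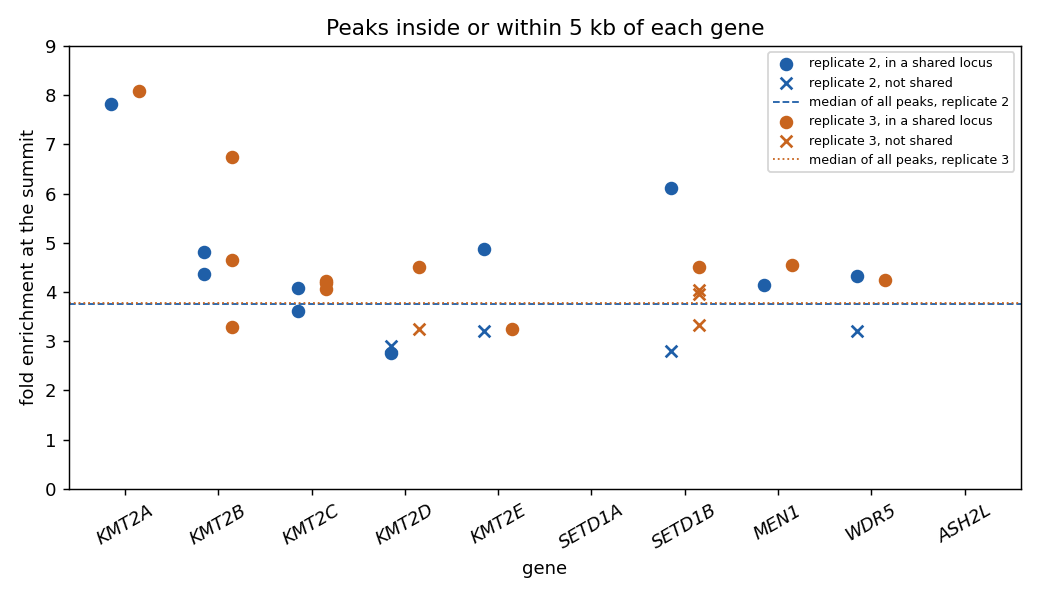
Deposited fold enrichment (y axis, linear ratio) of each peak inside or within 5 kb of the 10 genes (x axis), in replicate 2 (blue) and replicate 3 (orange). Circles are peaks in a locus shared by both libraries, crosses are peaks of 1 library, and lines are the medians of all peaks, 3.76 and 3.78. KMT2A stands highest at 7.83 and 8.09, and SETD1A and ASH2L have no peak.

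WDR5, the core subunit that holds the tail of histone H3, had its shared locus at chromosome 9, 134135953 to 134136468. Fold was 4.32 and 4.25, on 27 fragments in each library over backgrounds of 5.35 and 5.48. RefSeq gives this gene 4 starts. The summits lay at 957 bp and 849 bp from the outermost, but at 74 bp and -34 bp from an internal one. The divergent transcript WDR5-DT starts nearby, with the summits at -174 bp and -66 bp from its start. Replicate 2 had a further peak between the starts, with fold 3.20.

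MEN1, whose product menin tethers KMT2A to its targets, had 1 peak in each library, but not at its own start. The locus (chromosome 11, 64802968 to 64803387) lay past the far end of MEN1, with summits 448 bp and 414 bp outside the gene. The same summits lay 146 bp and 112 bp inside the neighbouring gene MAP4K2, counted from its start. Replicate 2 had fold 4.15 with 21 fragments, and replicate 3 had 4.54 with 25. MAP4K2 encodes a kinase upstream of the JNK pathway. MEN1 is thus in the set through the 5 kb window, and neither library had a peak at its annotated starts.

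ASH2L, the core subunit that supports catalysis with RBBP5, had no peak. The nearest summits were 36800 bp and 36437 bp from the gene. Of these core subunit genes WDR5 had a shared locus within 5 kb and ASH2L had none, against 25.5% of all protein-coding genes. ASH2L has no annotated start, and a missing peak means only that the calling threshold was not passed. RBBP5 and DPY30, which complete the core, had no shared locus either. RBBP5 had no peak within 5 kb. DPY30 had 1 peak in each library, with fold 3.93 and 4.20, at 1790 bp and 1011 bp below its lower end, and these did not overlap. Both summits lay inside or within 1 kb of MEMO1, another protein-coding gene.

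**Figure D3:**
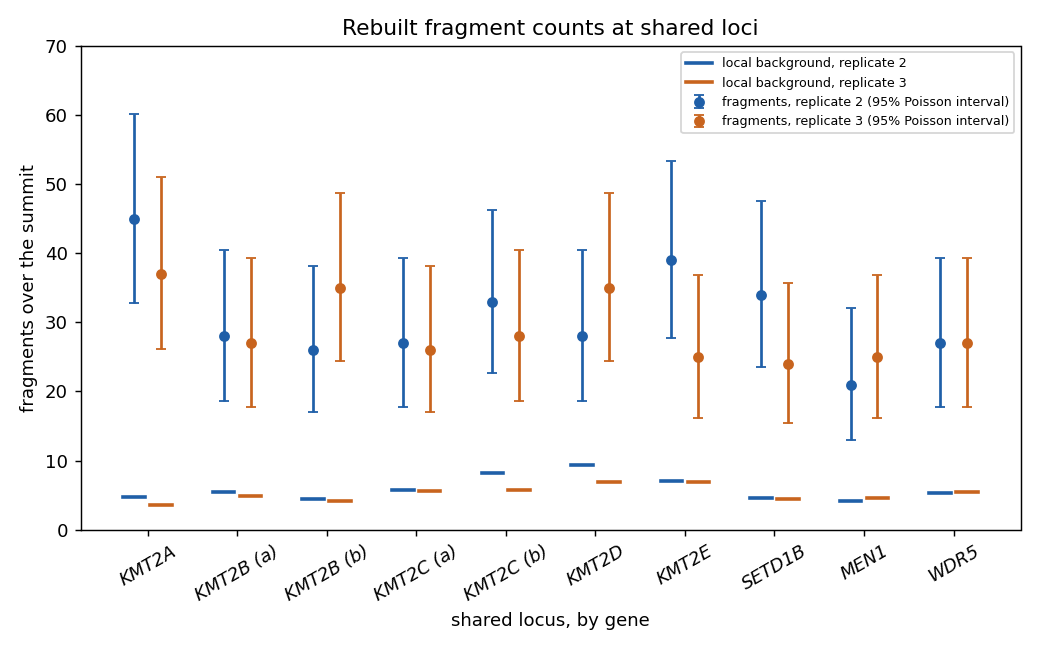
Fragments over the summit (y axis), rebuilt from the deposited fold and p, at the 10 shared loci of the set (x axis). Points are the highest peak of replicate 2 (blue) and replicate 3 (orange) with exact Poisson 95% intervals, which cover counting error only, and short lines are the local background at the depth of the ChIP library. KMT2A has the most fragments in each library, 45 and 37. The intervals of the libraries overlap at all 10 loci, which were kept for a peak in both, so the overlap is no measure of agreement.

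Across the 8 genes there were 10 shared loci, 2 each at KMT2B and KMT2C. The 95% intervals of the fragment counts overlapped between the libraries at all 10. That says little about agreement, since the intervals are wide and each locus was kept for a peak in both libraries. The counts were also read at each library's own summit and depth. The median lower fold of the libraries, over the highest locus of each gene, was 4.20, against 3.56 over all 5357 shared loci. Since the highest locus was taken for each gene, the values are not like for like. Of the 10 loci, 8 exceeded the median of all loci, and the others, at KMT2D and KMT2E, stood above 10.4% and 31.9% of them. Of the 10, 7 were at least 500 bp wide, against 36.1% of all shared loci. Width is that of all merged peaks together, so peaks offset between the libraries widen a locus. At KMT2C peaks of 312 and 319 bp thus gave a locus of 625 bp. Summits at most 20 bp apart were found at 3 of the 10, namely KMT2A, KMT2B and KMT2E, against 15.0% of all shared loci. At these 3 genes both summits lay upstream of the start, within the printed windows. Of the 3247 genes with a shared locus near an annotated start, 39.7% had their highest summit upstream in replicate 2 and 40.1% in replicate 3, and 50.7% and 52.0% had it within 150 bp of a start.

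The edges of the choice were as follows. The farthest summit outside a gene that still counted was the replicate 2 peak at 1310 bp from KMT2E, with fold 3.20. The nearest that did not count was a replicate 2 peak 5288 bp from WDR5, with fold 2.78. The next, in replicate 3, lay 9220 bp from KMT2D, with fold 3.74.

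The promoter windows were searched on both strands for 6 short motifs, with overlapping matches counted separately, as a description of letters and not of binding sites. Of the 12 windows of the 8 genes 3 held summits of both libraries, at KMT2A, KMT2B and KMT2E, and peak sequence outside the windows was not searched. The forkhead core TAAACA, found in 9.52% of the 22132 windows of protein-coding genes, was in none of the 12 windows. The cell cycle element CHR is bound by the MuvB complex, through which FOXM1 is known to reach many promoters. In its form TTTGAA, found in 12.4% of windows, it occurred once, in the outermost window of WDR5, and in its form TTCGAA (1.53%) not at all. The GC box GGGCGG, a site of SP and KLF factors, was found in 56.3% of windows. Each of the 8 genes had a window with it, but the outermost WDR5 window and the upstream MEN1 window had none. The share counts windows and not genes, so these values are not like for like. The GC box occurred 3 times at KMT2A, 5 times at KMT2B and once at KMT2E. In the printed WDR5 window it occurred 3 times, 2 of them within the capitals around the replicate 3 summit. SETD1A, without a peak, had 4. The CCAAT box (34.6% of windows) was found at MEN1 and in the outermost WDR5 window, and the E-box CACGTG (8.34%) at KMT2D and in the innermost WDR5 window.

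CpG dinucleotides in the windows ranged widely among the genes. KMT2C had 56 in 300 bases, more than 99.7% of all windows, KMT2B had 48 and KMT2A 36, more than 97.5% and 83.6%. KMT2E had 35, more than 81.7%, and KMT2D had 27, more than 63.5%. SETD1A had 30, above 71.1% of windows, and no peak. The 4 windows of WDR5 held from 6 to 45, and the printed one held 31. MEN1, with no peak at its starts, had 25 and 20 in its 2 windows. The median was 21 over all windows and 38 over those that hold a summit of each library at a shared locus.

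Other genes of the pathway are given by count, from lists drawn up with earlier results of these data known. Of 13 further subunits of the complexes 2 had a shared locus within 5 kb, against the same 25.5% of all protein-coding genes. These were PAXIP1 (chromosome 7, 155002341 to 155002891; fold 4.27 and 4.92) and NCOA6 (chromosome 20, 34825160 to 34825720; fold 2.63 and 4.07), both known as partners of KMT2C and KMT2D. Replicate 3 alone had peaks at 4 others, HCFC2, WDR82, PSIP1 and BOD1L1. In all 8 of the 13 had a peak in replicate 3, against 41.3% of all protein-coding genes, and 4 had one in replicate 2, against 33.3%. The highest was at PSIP1, which encodes the chromatin tether LEDGF of the menin and KMT2A complex, with fold 5.03 at 45 bp from the start. KDM6A, the H3 lysine 27 demethylase of the KMT2C and KMT2D complexes, had 1 peak in replicate 2 and 3 in replicate 3, none of which overlapped between the libraries. No peak was listed at RBBP5, HCFC1, CXXC1, PAGR1 or BOD1.

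The demethylases that remove methyl groups from lysine 4 of histone H3 had no shared locus in 5 genes, against 25.5% of all protein-coding genes, a count that says little with so few genes. KDM1A and KDM5B had a peak in replicate 3 alone (fold 3.74 and 3.68) and KDM5C in replicate 2 alone (fold 4.97). KDM1B had 1 in each library, with fold 3.65 and 3.50, that did not overlap. KDM5A had none.

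Of 6 genes known to depend on KMT2A or menin, 3 had a shared locus within 5 kb, against 25.5% of all protein-coding genes. CDKN1B, the gene of the cell cycle inhibitor p27, had 3 such loci, and the highest had fold 3.88 and 4.74 with summits 5 bp apart, 2597 bp and 2602 bp past the far end of the gene and within 1 kb of APOLD1. The locus at the start of CDKN1B had summits at -200 bp in replicate 2 and -473 bp in replicate 3. Fold there was 2.42 and 3.29, the replicate 2 value above only 1.32% of that list. GPR19 lay within 1 kb of these summits. CDKN2C, the gene of the inhibitor p18, had its highest at fold 4.26 and 4.05, with summits 3347 bp and 3562 bp past the far end. Further shared loci lay inside CDKN2C, among them a locus at an annotated start with summits at -116 bp and -35 bp (fold 4.13 and 3.86). At HOXA10 fold was 2.81 and 4.37. The replicate 2 peak there had a −log10 q of 1.58 and a fold above only 7.77% of its list. Both summits also lay inside or within 1 kb of the gene HOXA10-HOXA9. The neighbouring HOXA7 and HOXA9 had a peak in replicate 3 alone (fold 3.66 and 3.35), and MEIS1 had none.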

How the data were processed

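The submitters' processing notes name MACS2 2.2.7.1, BWA, CASAVA 1.4 and build GRCh38; the role of each tool, filters and the handling of duplicates are not given in the sources used here. The authors deposited 1 peak list and 1 summit list per ChIP library, with a fold enrichment (linear ratio), a −log10 p, a −log10 q and a summit offset for each peak. The deposited score equals −log10 q times 10 and was not used. Total reads were not used here.

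Summits were start plus offset, in 1-based coordinates. Peaks overlapping by at least 1 bp formed shared loci, each with the highest fold of each library. Fragment counts were rebuilt by search for the whole number whose scaled value, with a pseudocount of 1 on signal and background, gives the deposited fold and Poisson p; 100% of peaks were matched within 0.01 of −log10 p, with scales of 0.848 and 0.869. This and the merging were tested on simulated data. The control is not named in the labels. Median summit depth was 26 and 24.5 fragments. Gene positions and promoter windows came from RefSeq, GRCh38.p14, with 15813 of 19974 protein-coding genes having an annotated start.

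The 10 genes, the pathway lists and the comparisons were chosen with earlier results of these data known. Named genes were the 10 genes, up to 4 members with a shared locus of each list, and genes within 1 kb of a summit; other list members named were chosen after their values were seen. No test between groups was possible, and none was run over the genes. Alternatives covered thresholds, overlap, windows and single libraries; the folds of single libraries were added after seeing the data. Python 3.11.15, numpy 2.4.6, pandas 2.3.3, SciPy 1.17.1 and matplotlib 3.10.9 were used.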

Additional observations from a re-analysis of the deposited data

How the results depend on the processing

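The count of 8 genes with a shared locus within 5 kb became 2 with −log10 q of at least 5 in each library (KMT2A and KMT2B, against 6.36% of all protein-coding genes), 4 with peaks that overlap by at least 50% of each (against 16.9%) and 4 with summits inside the gene (against 16.1%). The other 5 alternatives gave 6 or 8, against 8.33% to 41.3%. The count of 6 at an annotated start became 2 with −log10 q of at least 5, against 4.72% of all protein-coding genes. It was 4 to 6 in the other 7, against 6.09% to 33.5%. Each library alone gave 8 genes within 5 kb, against 33.3% in replicate 2 and 41.3% in replicate 3. At a start each gave 6, against 26.4% and 33.5%. Of the 13 further subunits 2 had a shared locus, against 25.5% of all protein-coding genes. The count was 1 with −log10 q of at least 5, against 6.36%, and 0 with summits within 100 bp, against 15.7%. With a library left out 4 to 8 had a peak, against 33.3% to 41.3%. Of the 5 demethylase genes none had a shared locus, and with a library left out 2 to 3 had a peak, against 33.3% to 41.3%. Of the 6 genes that depend on KMT2A or menin 3 had a shared locus, and 0 with −log10 q of at least 5, against 6.36%. With a library left out 3 to 5 had a peak, against 33.3% to 41.3%. The lower fold at KMT2C was 4.06, and 3.62 when the locus of highest −log10 q was taken. Over all protein-coding genes the share rose as well, from 25.5% to 41.3% with replicate 3 alone and 33.3% with replicate 2 alone. The fold of each single library was read at the locus chosen from both. It ranged from 7.83 to 8.09 at KMT2A, 4.82 to 6.74 at KMT2B, 4.06 to 4.09 at KMT2C and 2.75 to 4.50 at KMT2D. It was 3.25 to 4.87 at KMT2E, 4.51 to 6.11 at SETD1B, 4.15 to 4.54 at MEN1 and 4.25 to 4.32 at WDR5. At KMT2C the highest replicate 3 peak, with fold 4.22 at -838 bp, lay in the other shared locus. No paired analysis was possible because the ChIP libraries form a single group and the input has no peak list. Peaks of these genes rested on 18 to 45 fragments, which limits what a missing or unshared peak can show.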

Other observations

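Across the genome, 975 of the 22132 promoter windows held a summit of each library at a shared locus. Of these, 92.8% had the GC box GGGCGG, against 56.3% of all windows, and 2.77% had the forkhead core TAAACA, against 9.52%. The CHR form TTTGAA was in 4.21% against 12.4%, and the CCAAT box in 23.8% against 34.6%. Their median was 38 CpG dinucleotides and 75.3% G and C, against 21 and 62.3%. Windows of neighbouring starts overlap, the motifs differ in base composition as the windows do, and the part of base composition in these shares was not tested.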
